A study of Mus musculus with 10 samples.

Results

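Accessible chromatin at the genes of 2 families of activation-induced transcription factors, Nr4a (Nr4a1, Nr4a2 and Nr4a3) and Egr (Egr1, Egr2 and Egr3), was compared between group 2 innate lymphoid cells (ILC2s) of 5 mouse tissues. A region was assigned to a gene when its centre lay inside that gene or when the nearest curated RefSeq transcription start site (TSS) belonged to it. Of 50039 regions in the count table, 50 were assigned: 14 to Egr3, 10 to Egr1, 8 to Egr2, 8 to Nr4a3, 6 to Nr4a2 and 4 to Nr4a1. No measured value entered this choice, and all 50 were among the 49981 regions tested. Assignment to the nearest TSS does not show that a region acts on that gene: 7 of the 14 Egr3 regions lay in introns of the neighbouring gene Pebp4, and the Nr4a2 region farthest from its TSS lay in intron 1 of the noncoding gene BB557941. When predicted RefSeq models were added, 34 regions were assigned, since 19 of the 50, among them all 6 upstream Egr2 regions, 10 of the 14 of Egr3 and that of Nr4a2, then had a predicted gene as the nearest and 3 others came to Nr4a1. Names such as Egr2 −41.8 kb therefore give a distance from the nearest curated TSS and no more.

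ATAC-seq, which reads open chromatin by where a transposase can insert into DNA, was performed in duplicate on ILC2s of the large (LI) and the small intestine (SI), the lung, the pancreas and the bone marrow (BM). All 10 libraries came from male C57BL/6 mice aged 6 weeks that carried no other allele or treatment named in the labels, and each held 50000 sorted cells pooled from 10 mice for LI and SI and from 16 for BM, lung and pancreas. BM ILC2s were sorted as Lin–ST2+CD25+, those of LI, lung and pancreas as Lin–CD45+CD127+ST2+CD25+, and those of SI as Lin–CD45+CD127+KLRG1+ cells with low to intermediate Thy1. BM cells were flushed from bone, whereas lung, pancreas and intestine were digested with collagenase for times that differed. The intestine was first incubated with EDTA. The gate, the sorter and this preparation changed with the tissue. The number of pooled mice differed exactly between the intestine and the other 3 tissues. The effect of none of these can be told apart from that of the tissue. Where a region gave fewer reads, fewer cells with open chromatin and less opening per cell cannot be told apart, since every library was a bulk of cells.

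Nr4a proteins are orphan nuclear receptors, and Egr proteins are zinc-finger transcription factors. Both families are immediate-early genes: an antigen receptor, cytokine or alarmin signal switches them on within minutes, without new protein synthesis, through factors already in the cell such as SRF with its ETS partners, CREB, MEF2 and NFAT. In T cells, Egr2, Egr3 and the Nr4a receptors are known for restraining the response as well as for marking it. ILC2s lack an antigen receptor and respond to alarmins such as IL-33, IL-25 and TSLP.

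The 6 regions with the largest tissue differences were distal, and 150 bases of each, and of a seventh that was lower in BM (Nr4a3 27.8 kb downstream), are given on the forward strand of GRCm38 (mm10), with the bases taken as the table gives them and counted from 1. In the first 6, capitals mark TGANTCA, a loose form of the letters bound by AP-1, a dimer of Fos and Jun proteins. The match at Nr4a3 32.9 kb upstream reads TGAATCA, and the others have G or C in place of N. In the last, capitals mark AGATAA or its reverse complement, the letters bound by GATA factors, of which GATA3 defines ILC2s.
Egr2 41.8 kb upstream (chr10:67493674-67493823): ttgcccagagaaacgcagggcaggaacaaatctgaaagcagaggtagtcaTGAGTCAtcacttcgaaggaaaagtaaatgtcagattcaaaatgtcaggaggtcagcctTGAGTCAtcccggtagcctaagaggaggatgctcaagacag
Egr2 51.9 kb upstream (chr10:67483492-67483641): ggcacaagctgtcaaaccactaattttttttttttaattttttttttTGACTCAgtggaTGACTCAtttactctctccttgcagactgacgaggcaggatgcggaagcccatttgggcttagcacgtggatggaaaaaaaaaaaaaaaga
Egr2 47.8 kb upstream (chr10:67487601-67487750): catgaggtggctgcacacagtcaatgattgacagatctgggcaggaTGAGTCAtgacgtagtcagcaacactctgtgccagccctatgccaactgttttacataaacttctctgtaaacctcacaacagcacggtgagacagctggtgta
Egr2 76.5 kb upstream (chr10:67458964-67459113): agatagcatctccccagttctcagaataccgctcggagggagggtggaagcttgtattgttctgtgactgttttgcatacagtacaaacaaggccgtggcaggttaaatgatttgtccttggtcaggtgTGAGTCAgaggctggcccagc
Nr4a3 32.9 kb upstream (chr4:48012187-48012336): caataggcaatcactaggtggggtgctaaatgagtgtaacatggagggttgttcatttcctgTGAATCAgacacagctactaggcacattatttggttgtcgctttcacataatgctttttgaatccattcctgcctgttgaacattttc
Nr4a3 27.8 kb downstream (chr4:48073007-48073156): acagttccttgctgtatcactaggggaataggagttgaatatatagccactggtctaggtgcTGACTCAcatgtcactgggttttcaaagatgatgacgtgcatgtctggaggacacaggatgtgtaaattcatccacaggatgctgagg
Nr4a2 14.7 kb upstream (chr2:57138487-57138636): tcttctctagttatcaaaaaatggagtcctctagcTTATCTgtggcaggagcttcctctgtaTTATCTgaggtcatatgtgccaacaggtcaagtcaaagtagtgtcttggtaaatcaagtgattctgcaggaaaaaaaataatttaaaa

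For contrast, 2 stretches near a TSS are given, since the promoter regions of both genes varied least of the 5 promoter regions. RefSeq promoter sequences (GRCm38.p6; 250 bases before to 50 after a TSS) were given for 4 of the 6 genes. In that of Nr4a3, capitals mark 3 copies of TGACGT, the core letters bound by CREB; 7.51% of all 32851 promoter sequences hold at least 1 copy on either strand. In that of Egr2, capitals mark a CArG box, the letters bound by SRF, which 1.63% of promoter sequences hold. The Egr2 stretch begins at 67537787, beyond the end of its promoter region at 67537578. Its CArG box is therefore not the one counted inside that region.
Nr4a3 promoter (chr4:48045055-48045184): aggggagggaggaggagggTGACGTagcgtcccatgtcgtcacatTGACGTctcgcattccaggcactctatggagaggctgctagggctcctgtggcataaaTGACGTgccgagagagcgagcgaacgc
Egr2 promoter (chr10:67537787-67537816): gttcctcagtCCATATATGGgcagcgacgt

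Values are CPM, the reads of a region per 1000000 reads of its library after TMM scaling, and differences are on the log2 scale with the standard error of the fit. Libraries held 10282987 to 32797872 counts, and the 50 regions held 8 to 5464 counts in a library. The 10 regions with the most counts in the whole table took 6.91% to 23.5% of a library. TMM scaling is meant to offset such a share, and whether it did so fully was not tested. Summed promoter CPM of the 9 ILC2 marker genes with a promoter region was 237 to 393 over the libraries. The ST2 gene Il1rl1 was lowest in SI (4.53 and 3.55 CPM, against 10.4 to 41.9 elsewhere), where ST2 was not in the gate. Summed promoter CPM was 26.9 to 50.7 for 3 of 6 T cell markers, most of it at Lat, 17.3 to 28.0 for 2 of 6 myeloid markers, and 1.41 to 8.52 for 1 of 5 B cell markers. None of the mast cell or epithelial markers had a promoter region in the table. The part of other cells in the results was not tested.

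Regions close to a TSS differed little between tissues, and the large differences lay farther out. Over the 5 tissues, 23 of the 50 regions differed (edgeR, adjusted p below 0.05), or 46.0% against 44.2% of all regions tested, a share close to that of regions in general. Within 3 kb of a TSS 4 of 15 regions differed, and beyond 3 kb 19 of 35, against 31.0% and 50.9% of all regions in the same bands. The median of the largest difference between 2 tissues was 0.64 within 3 kb and 1.17 beyond, beside 0.66 and 1.17 for all regions. The 3 kb limit was set after the values were seen. The regions near a TSS also had more reads (median 35.5 against 8.92 CPM) and a higher GC content (median 64.4% against 50.6%).

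**Figure D1:**
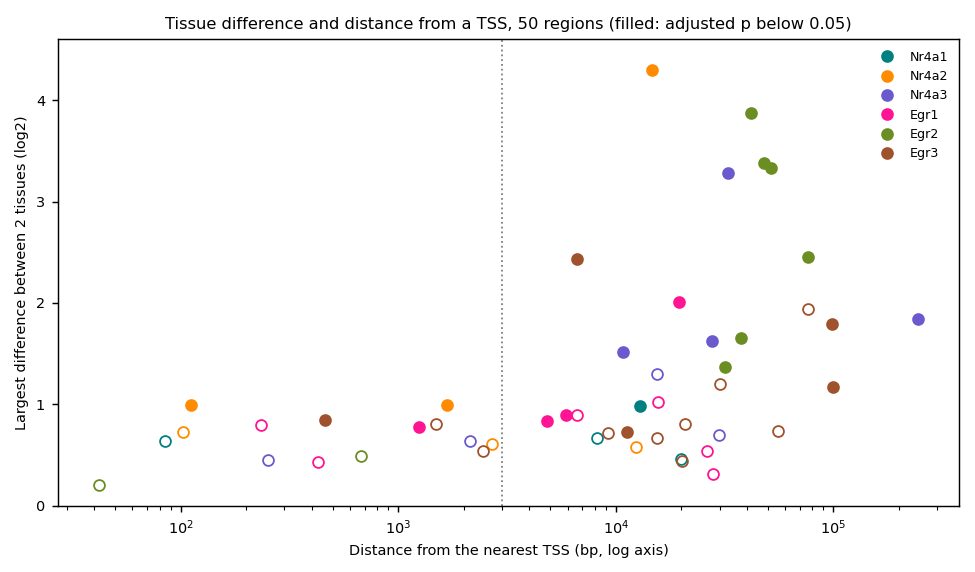
Largest log2 difference between 2 tissues (vertical axis) against distance from the nearest TSS in bp (log axis) for the 50 regions, coloured by gene, filled where the 5 tissues differed at an adjusted p below 0.05; the dotted line stands at 3 kb. No region within 3 kb exceeded 0.99, and the region 14.7 kb from Nr4a2 reached 4.30.

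Nr4a1, which encodes Nur77, the member most used as a reporter of recent signalling in lymphocytes, had 4 regions, and none differed by more than 0.98 between tissues. Its promoter region (chr15:101266485-101267037, 85 bp upstream of the TSS) gave 76.4 and 95.2 CPM in BM, 79.9 and 73.7 in lung, 72.0 and 62.0 in pancreas, 50.0 and 59.7 in LI, and 58.0 and 79.6 in SI. The range of SI overlapped that of every other tissue and BM overlapped lung, while the remaining pairs did not touch (adjusted p = 0.109 over the 5 tissues). The region 12.8 kb upstream (chr15:101253723-101254270) covers the first base of the longest RefSeq model of Nr4a1, a predicted one that begins at 101253902. It gave 51.8 and 62.8 CPM in BM, 71.2 and 61.2 in lung, 61.4 and 51.4 in pancreas, 27.8 and 38.8 in LI, and 29.0 and 38.7 in SI. All 4 intestinal libraries lay below the other 6, and it was lower in intestine by −0.83 ± 0.14 (SE) on the log2 scale (adjusted p = 0.000439). A region 8.2 kb upstream was higher in BM by 0.49 ± 0.18 (adjusted p = 0.0496), a call that was lost without either BM library (adjusted p = 0.111 without the first and 0.365 without the second) and under most other alternatives. The widest region, 19.9 kb upstream and 1249 bp long, ranged from 84.6 to 144 CPM (adjusted p = 0.307).

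Nr4a2, which encodes Nurr1, showed the largest tissue difference of the 50 regions. At chr2:57138481-57138982, 14.7 kb upstream, the libraries gave 20.1 and 20.2 CPM in BM, 7.53 and 5.13 in lung, 4.06 and 3.67 in pancreas, 3.31 and 2.48 in LI, and 1.35 and 0.732 in SI. BM stood above every other library and SI below every other one. The log2 difference was 2.79 ± 0.21 for BM against the mean of the other 4 tissues (adjusted p = 7.52e-07) and −2.58 ± 0.31 for SI (adjusted p = 2.91e-05). BM exceeded SI by 4.30 ± 0.36 and the nearest tissue, lung, by 1.67 ± 0.30. The SI values rest on 28 and 21 counts.

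No Nr4a2 region had its centre within the promoter window, which ran from 1000 bp before to 100 bp after a TSS, but 2 regions centred 102 and 111 bp after its 2 TSSs lay just outside. That at the inner TSS (chr2:57114544-57115328, 5′ UTR of the shorter transcript and intron 1 of the longer) gave 58.8 and 71.4 CPM in BM, 70.1 and 70.9 in lung, 69.4 and 54.9 in pancreas, 51.9 and 62.6 in LI, and 49.5 and 35.4 in SI. That at the outer TSS (chr2:57123350-57124435) gave 34.6 and 38.0, 37.2 and 37.8, 27.1 and 23.6, 24.1 and 28.7, and 20.8 and 17.0 CPM in the same order. Both SI libraries were the lowest at each. The log2 difference of SI was −0.58 ± 0.17 at the inner TSS (adjusted p = 0.0202) and −0.71 ± 0.16 at the outer (adjusted p = 0.00495). Both calls were lost without the second SI library (−0.37, adjusted p = 0.207, and −0.58, adjusted p = 0.0509). An intronic region 1.7 kb from the inner TSS was lower in SI as well, by −0.68 ± 0.16 (adjusted p = 0.00642; 0.0753 without the second SI library). Of the 6 Nr4a2 regions, 4 were lower in SI and none higher, beside 10.2% and 11.8% of all regions.

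Nr4a3, which encodes Nor1, carried the most accessible region of the set beside distal regions that were nearly closed in BM. Per kb of region, the highest level of all 50 was 278 CPM at 2.1 kb upstream, followed by 149 CPM per kb at its promoter. At 2.1 kb upstream (chr4:48042895-48043431) the libraries gave 209 and 184 CPM in BM, 161 and 151 in lung, 147 and 107 in pancreas, 110 and 142 in LI, and 116 and 162 in SI. Both BM libraries were the highest (0.53 ± 0.16, adjusted p = 0.022), but the difference was 0.05 (adjusted p = 0.79) once the trend with mean count was removed, and the call was lost without the first BM (adjusted p = 0.221), the second BM (0.0701) or the second lung library (0.0549). The promoter region (chr4:48044790-48045316) ranged from 58.3 to 96.3 CPM (adjusted p = 0.144 over the 5 tissues). SI (64.0 and 68.0) lay below every BM, lung and pancreas library, and LI (58.3 and 75.4) overlapped BM and SI alone. Intestine was lower by −0.38 ± 0.12 (adjusted p = 0.0333). That call was lost under library size alone (−0.35, adjusted p = 0.104) and under other alternatives.

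At chr4:48012125-48012648, 32.9 kb upstream of Nr4a3, BM libraries gave 0.636 and 0.828 CPM, from 13 and 18 counts. The other 8 libraries gave 6.94 and 4.61 in lung, 6.65 and 5.07 in pancreas, 6.36 and 6.86 in LI, and 6.55 and 7.84 in SI. BM was lower by −3.10 ± 0.33 (adjusted p = 6.89e-06), while the widest difference among the other 4 tissues, lung against SI, was −0.32 ± 0.30. In intron 7, 27.8 kb downstream (chr4:48072827-48073346), BM gave 4.31 and 3.82 CPM and the other libraries 7.83 to 14.0, a difference of −1.39 ± 0.22 (adjusted p = 0.000216). Regions 10.8 and 15.5 kb upstream were lower in BM by −1.24 ± 0.31 (adjusted p = 0.00652; −0.99 and 0.122 without the first BM library) and −1.15 ± 0.38 (adjusted p = 0.0294; lost without either BM library). Thus 4 of 8 Nr4a3 regions were called lower in BM, beside 17.0% of all regions, and 2 of these 4 calls were lost without a BM library. The assignment of the region 245.9 kb upstream, the only one beyond 100000 bp, is the least secure.

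**Figure D2:**
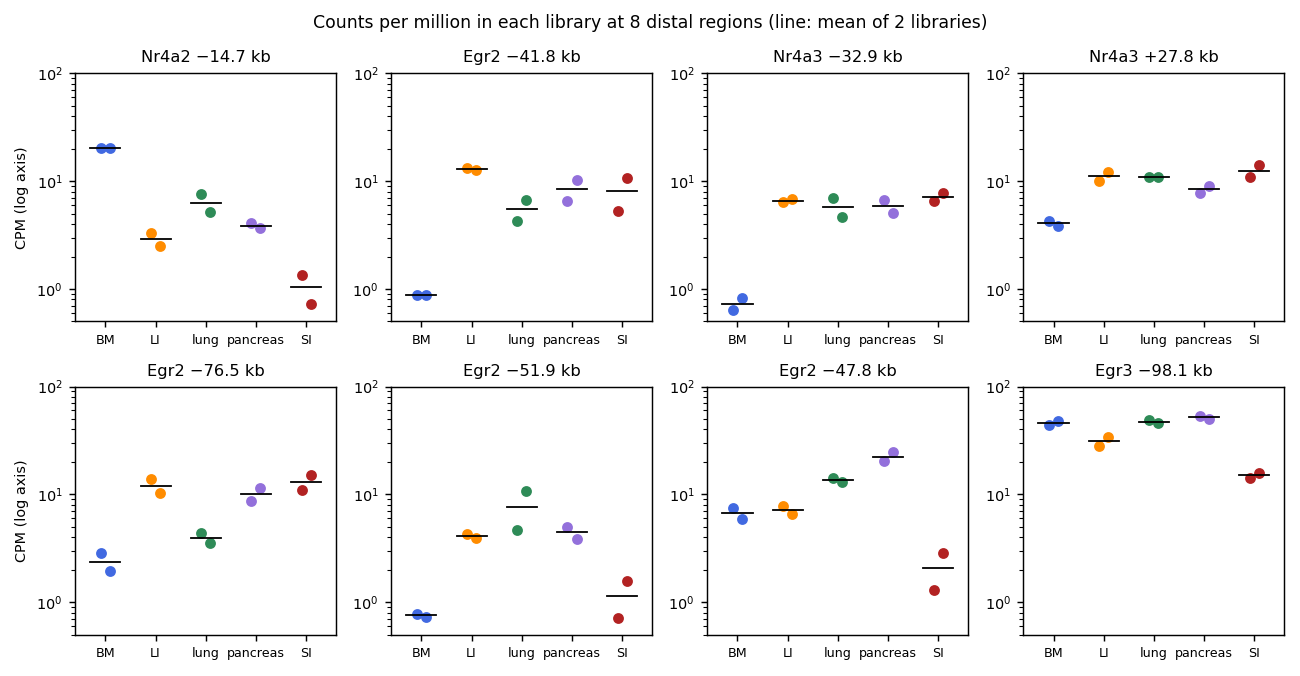
CPM (log axis) of each library at 8 distal regions, by tissue, with the mean of the 2 libraries as a line. BM stood apart at 5 of them: above the rest at Nr4a2 −14.7 kb, and below the rest at Egr2 −41.8 kb, Nr4a3 −32.9 kb, Nr4a3 +27.8 kb and Egr2 −76.5 kb, while at Egr2 −51.9 kb BM and SI were both low; SI stood lowest at Egr2 −47.8 kb and Egr3 −98.1 kb.

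Egr1, the most widely induced member of the Egr family, had 10 regions. Its promoter region (chr18:34860611-34861334) gave 86.1 and 76.2 CPM in BM, 59.9 and 71.8 in lung, 58.7 and 34.0 in pancreas, 66.9 and 61.5 in LI, and 78.2 and 70.2 in SI. The second pancreas library was the lowest; pancreas was lower by −0.61 ± 0.18 (adjusted p = 0.0453), and without that library the difference was −0.27 (adjusted p = 0.571). At 4.8 kb upstream (chr18:34856121-34856628), the most accessible Egr1 region per kb (103 CPM per kb), the libraries gave 62.3 and 69.7 CPM in BM, 60.9 and 66.2 in lung, 54.2 and 48.9 in pancreas, 35.8 and 50.6 in LI, and 31.4 and 42.6 in SI. Intestine was lower by −0.58 ± 0.14 (adjusted p = 0.00466), although LI and pancreas overlapped. The widest difference at Egr1, 2.01 ± 0.48 between BM and lung, stood 19.4 kb downstream at 0.745 to 4.65 CPM. The lung values rest on 29 and 27 counts. BM was higher by 1.19 ± 0.35 (adjusted p = 0.0153), and by 0.81 without the first BM library. Lung was lower by −1.32 ± 0.41 (adjusted p = 0.0428), a call lost under library size alone (−1.14, adjusted p = 0.0591) and under other alternatives.

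Egr2, which is induced by antigen receptor signals in T cells, had similar values in all tissues at its TSS and large differences upstream of it. Its promoter region (chr10:67536929-67537578), centred 42 bp after a TSS in a 5′ UTR exon of one transcript and intron 2 of another, gave 53.6 and 38.2 CPM in BM, 46.4 and 55.7 in lung, 49.0 and 40.1 in pancreas, 54.0 and 48.1 in LI, and 50.0 and 38.7 in SI. All tissues overlapped, and the largest difference between 2 tissues, 0.20, was the smallest of the 50 regions (adjusted p = 0.801). All 6 intergenic regions, which lay 31.8 to 76.5 kb upstream within a stretch of 45.2 kb, differed among the tissues, and 5 of the 6 were lower in BM, 3 of them under every alternative setting; 50.9% of all regions beyond 3 kb differed, and 17.0% of all regions were lower in BM.

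At chr10:67493478-67493989, 41.8 kb upstream of Egr2, BM gave 0.881 and 0.874 CPM, from 18 and 19 counts. The other libraries gave 13.1 and 12.7 CPM in LI, 5.25 and 10.8 in SI, 4.23 and 6.73 in lung, and 6.60 and 10.2 in pancreas. BM was lower by −3.23 ± 0.37 (adjusted p = 1.34e-05) and LI higher by 1.60 ± 0.26 (adjusted p = 0.000707). Both differences held under every alternative, and the region holds 2 copies of TGAGTCA.

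At 76.5 kb upstream (chr10:67458745-67459283), BM gave 2.84 and 1.93 CPM and lung 4.39 and 3.56, whereas LI gave 13.8 and 10.2, pancreas 8.77 and 11.5, and SI 10.9 and 15.1. BM was lower by −1.90 ± 0.27 (adjusted p = 9.03e-05) and intestine higher by 1.45 ± 0.19 (adjusted p = 4.06e-05). At 51.9 kb upstream (chr10:67483302-67483802), BM gave 0.783 and 0.736 CPM and SI 0.722 and 1.57. LI gave 4.27 and 3.95, lung 4.63 and 10.7, and pancreas 5.01 and 3.88. BM was lower there by −2.23 ± 0.43 (adjusted p = 0.000997), and SI by −1.46 ± 0.39 (adjusted p = 0.0129; −1.07 and 0.123 without the first SI library).

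The region 47.8 kb upstream of Egr2 (chr10:67487428-67487974) had another order. Pancreas gave 20.3 and 24.5 CPM and lung 14.2 and 12.9, BM 7.49 and 5.94, LI 7.76 and 6.52, and SI 1.30 and 2.89. Pancreas was above and SI below all other libraries. The differences were 1.87 ± 0.21 for pancreas (adjusted p = 3.62e-05) and −2.35 ± 0.29 for SI (adjusted p = 3.1e-05). BM and LI did not separate (−0.08 ± 0.31). By mean CPM the highest tissue was LI at 41.8 kb, pancreas at 47.8 kb, lung at 51.9 kb and SI at 76.5 kb, but these orders did not separate from the next tissue: LI exceeded pancreas by 0.63 ± 0.35 (adjusted p = 0.437), lung exceeded pancreas by 0.78 ± 0.42 (adjusted p = 0.314), and LI against SI at 76.5 kb was −0.13 ± 0.29 (adjusted p = 0.815). Pancreas was above every other library at 47.8 kb, but its difference from lung, the next tissue, did not pass after adjustment either (adjusted p = 0.165).

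Egr3, a close relative of Egr2, had more regions than any other gene of the set, and its differences were mostly a low SI. At chr14:69978864-69979555, 98.1 kb upstream in intron 4 of Pebp4, the libraries gave 43.7 and 47.6 CPM in BM, 48.5 and 46.1 in lung, 53.6 and 50.3 in pancreas, 28.2 and 34.3 in LI, and 14.3 and 15.8 in SI. SI was below all others, by −1.52 ± 0.16 (adjusted p = 1.03e-05), and LI was next lowest. The neighbouring region 99.3 kb upstream was also lower in SI, by −1.11 ± 0.22 (adjusted p = 0.00152), with 6.16 and 6.79 CPM against 11.2 to 17.5. By nearest TSS both belong to Egr3, but they lie within another gene. Downstream of Egr3, 6.6 kb from its TSS, pancreas gave 5.83 and 7.23 CPM and SI 1.44 and 0.975. Pancreas was higher by 1.51 ± 0.31 (adjusted p = 0.0042; 0.1 without the second pancreas library), and SI lower by −1.53 ± 0.37 (adjusted p = 0.00715; 0.0699 without the second SI library).

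The Egr3 promoter region (chr14:70076603-70077112) was the only 1 of 5 promoter regions that differed among the tissues (adjusted p = 0.0108). It gave 33.8 and 35.3 CPM in lung against 28.8 and 25.3 in pancreas, 22.6 and 20.6 in LI, 16.6 and 22.0 in BM, and 21.4 and 18.0 in SI. Lung was the highest, by 0.67 ± 0.16 (adjusted p = 0.00911), and the call was lost without the first (adjusted p = 0.0697) or second lung library (0.195). The most accessible Egr3 region per kb was not at the promoter but 20.1 kb upstream, in intron 6 of Pebp4, with 135 CPM per kb against 48.0. It ranged from 66.5 to 97.2 CPM over the libraries (adjusted p = 0.295 over the 5 tissues). LI (66.5 and 67.5) lay below every other library, and the other tissues overlapped except SI and lung.

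**Figure D3:**
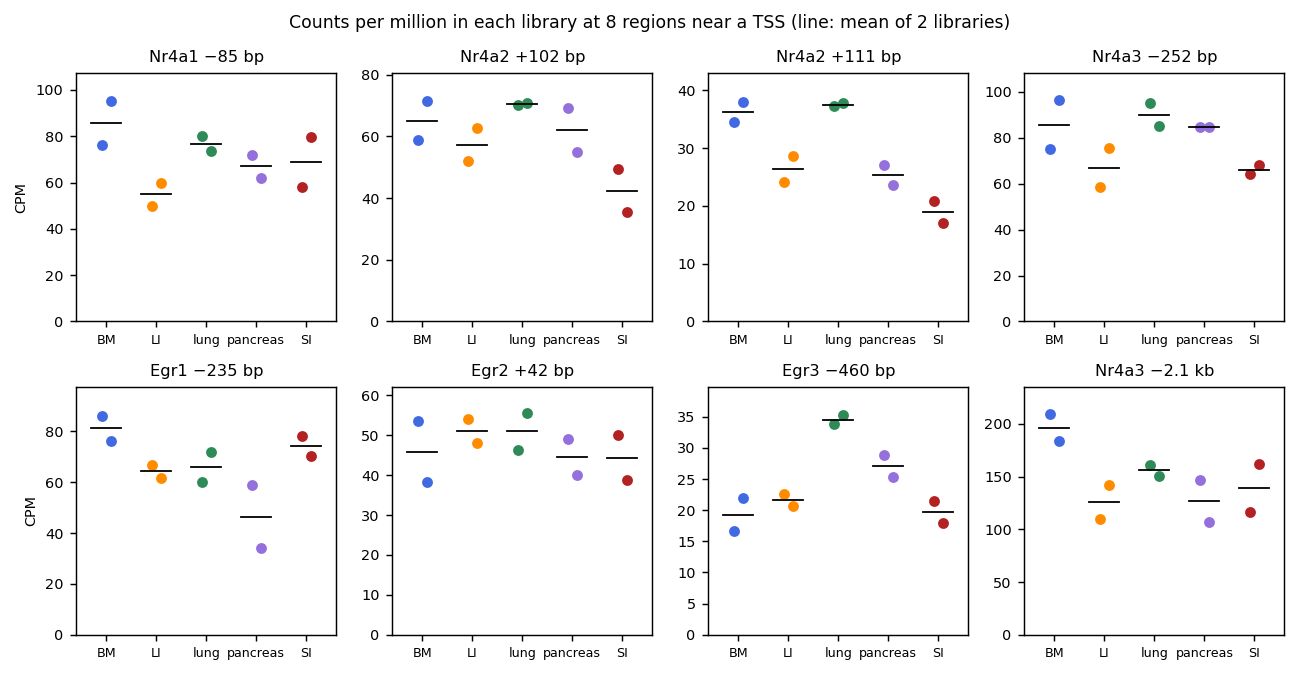
CPM of each library at 8 regions near a TSS, by tissue, with the mean of the 2 libraries as a line. The tissue means at Egr2 +42 bp ran from 44.4 to 51.1 CPM, and at Nr4a3 −2.1 kb, the most accessible region, from 126 to 197.

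Each tissue was then set against the mean of the other 4, where a share near that of all regions says nothing particular about the members. In BM, 9 of 50 regions were higher and 9 lower, or 18.0% each, beside 14.9% and 17.0% of all regions. The 9 lower ones were 5 of Egr2 and 4 of Nr4a3, all beyond 3 kb; no region of Nr4a1, Nr4a2, Egr1 or Egr3 was called lower in BM. Under scaling by library size alone, or with the trend with mean count removed, 3 were higher in BM. Without the first BM library 2 were higher and 5 lower, and 3 were higher without the second BM and 5 without the second lung library. In SI, 12 were lower (24.0% beside 10.2%) and 5 higher (10.0% beside 11.8%); the lower ones were 4 of Nr4a2, 4 of Egr3, 2 of Egr2 and 1 each of Nr4a1 and Egr1. Without the second SI library 3 were higher in SI, and under library size alone 7 were lower. In lung, 9 were higher (18.0% beside 6.53%) and 2 lower (4.0% beside 7.03%), and under library size alone 15 were higher and 1 lower. Without the first lung library 2 were called higher in lung and none lower, and without the second none either way. In pancreas 3 were higher (8.27% of all) and 2 lower (2.11%), and in LI 3 were higher (8.8%) and 1 lower (1.27%). Counts this small moved with most of the libraries left out: 5 were higher in pancreas without the first SI library and 6 without the second, 1 was higher in LI without the first LI library, and the 2 lower in pancreas came to 0 or 1 without any of the BM, LI, lung or pancreas libraries.

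**Figure D4:**
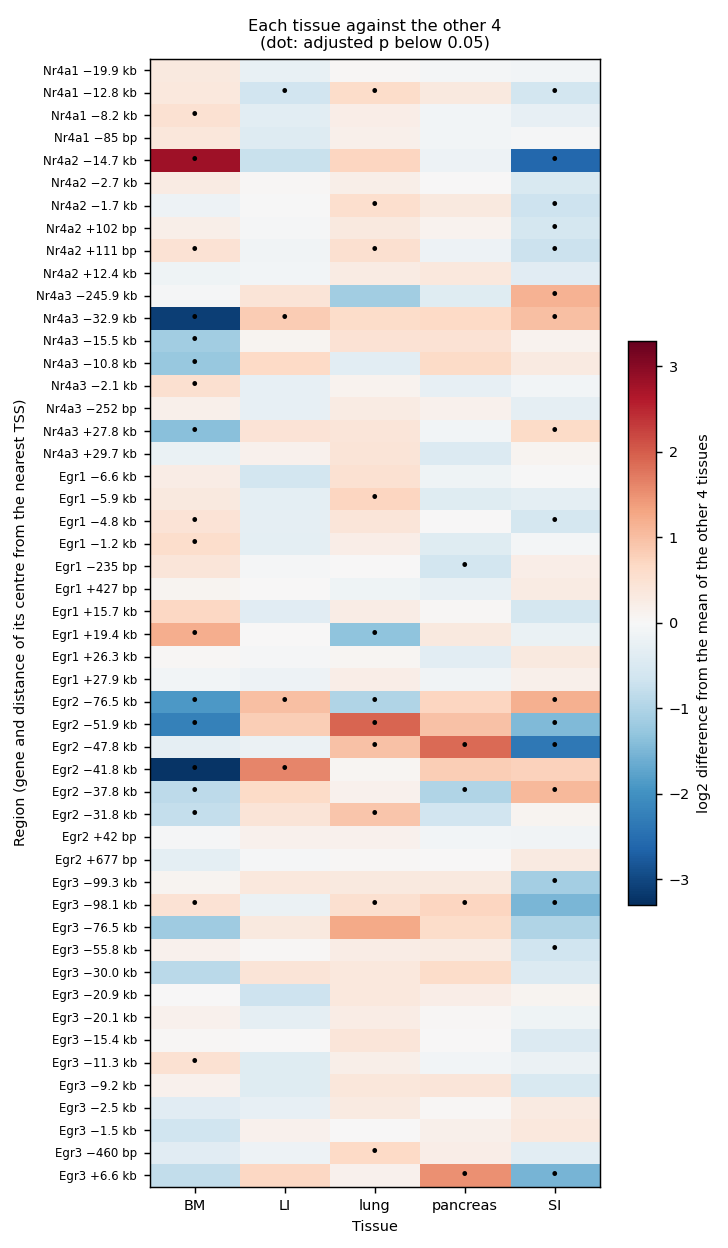
Log2 difference of each tissue from the mean of the other 4 (colour) for the 50 regions, grouped by gene and ordered by position, with a dot where the adjusted p was below 0.05. The BM column is darkest blue at Egr2 −41.8 kb, Nr4a3 −32.9 kb and Egr2 −51.9 kb, the SI column at Nr4a2 −14.7 kb and Egr2 −47.8 kb, and rows near a TSS are pale.

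Between LI and SI together and the other 3 tissues, 6 regions were higher in intestine and 12 lower (12.0% and 24.0%, beside 14.9% and 8.51% of all regions). The 6 higher ones were 3 of Egr2 and 3 of Nr4a3, and all 6 lay beyond 3 kb. The 12 lower ones were 4 of Nr4a2, 4 of Egr3 and 1 of each other gene, and came to 7 without the first LI or the second lung library. The median log2 difference of the 50 was −0.30, beside 0.00 over all regions.

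A region that was higher in 1 tissue than in each of the other 4 (unadjusted p below 0.05 in all 4 contrasts) was called a tissue-specific open chromatin region (TS OCR), and one that was lower than in each a commonly decreased peak. There were 2 TS OCRs, Nr4a2 −14.7 kb in BM (4.5% of all regions were TS OCRs of BM) and Egr2 −47.8 kb in pancreas (1.43%). The latter exceeded lung by only 0.72 ± 0.29 (unadjusted p = 0.0245). In BM, 5 regions were commonly decreased (6.63% of all): 2 of Egr2 and 3 of Nr4a3. In SI, 6 were commonly decreased (3.59% of all): 3 of Egr3, 2 of Nr4a2 and 1 of Egr2. No Egr1 or Nr4a1 region met either definition, and no region of the 6 genes was a TS OCR of LI (1.3%), lung (1.3%) or SI (2.8%), or commonly decreased in LI (0.132%), lung (1.72%) or pancreas (0.572%). Of these 13 calls, 8 held under every alternative setting: both at Nr4a2 −14.7 kb, BM at Egr2 −41.8 kb, Nr4a3 −32.9 kb and Nr4a3 +27.8 kb, and SI at Egr2 −47.8 kb, Egr3 −98.1 kb and Egr3 −99.3 kb.

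The CPM of all regions of a gene were also summed, and such a sum cannot change more than its most variable region does. The region with the most reads made up 26.6% (Egr3) to 55.8% (Nr4a3) of a sum. Summed CPM fell in the order BM, lung, pancreas, SI, LI for Nr4a1 (mean 360 to 238), lung, BM, pancreas, LI, SI for Nr4a2 (188 to 103), BM, lung, SI, pancreas, LI for Nr4a3 (306 to 238), BM, lung, SI, LI, pancreas for Egr1 (294 to 204), LI, lung, pancreas, SI, BM for Egr2 (119 to 77.0), and lung, pancreas, BM, LI, SI for Egr3 (351 to 249). For Nr4a1 and Nr4a3 every pair of neighbours in that order overlapped between libraries. For Egr2, LI overlapped lung and lung overlapped pancreas, while SI (104 and 102) and BM (86.8 and 67.1) did not touch their neighbours. For Nr4a2, SI (118 and 88.9) was the only tissue apart from its neighbour, and for Egr3 the pairs lung and pancreas, and BM and LI, did not overlap. Egr2 was the only gene of the 6 with its lowest sum in BM.

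**Figure D5:**
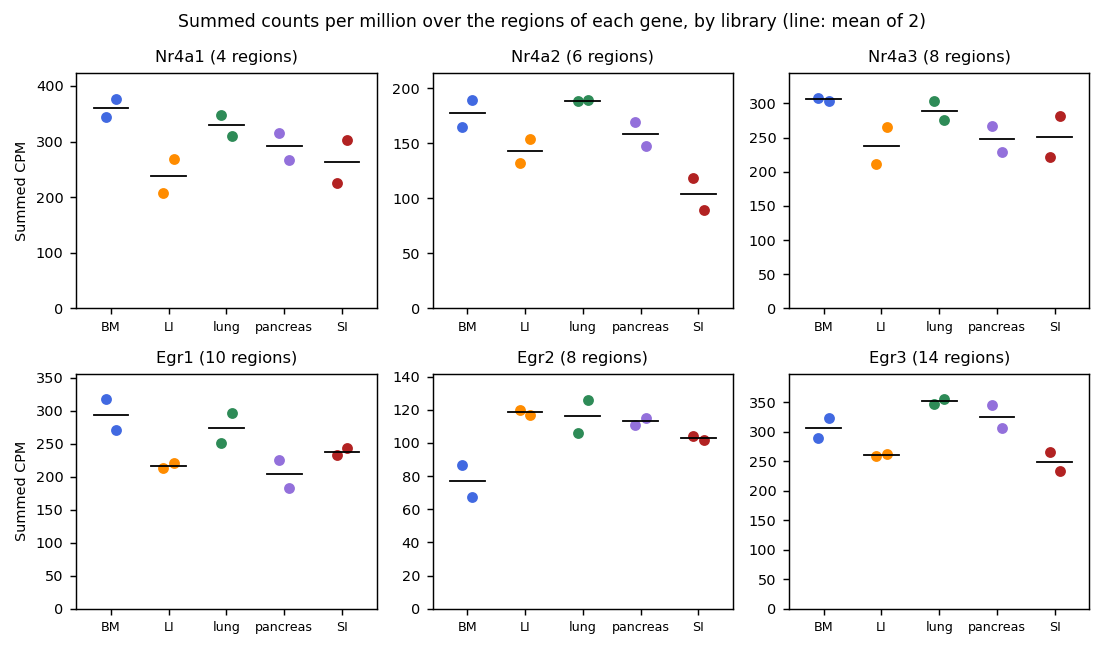
Summed CPM over the regions of each gene for each library, by tissue, with the mean of the 2 libraries as a line; vertical axes start at 0. BM was the highest for Nr4a1, Nr4a3 and Egr1 and the lowest for Egr2.

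As a description over 10 libraries that share depth and scaling, the log2 sums of Nr4a1 and Nr4a3 had a Pearson correlation of 0.948 and those of Nr4a2 and Egr3 one of 0.871, whereas Egr2 gave −0.591 to −0.052 with the other 5. Among 5517 genes with a mean sum of at least 50 CPM, the 3 most like each were Susd6, Lig4 and Nudt9 for Nr4a1 (0.955 to 0.962), Tarsl2, Mir760 and Gm27252 for Nr4a2 (0.944 to 0.965), Tdg, Anp32b and Pbrm1 for Nr4a3 (0.951 to 0.970), Josd1, Sptan1 and Trim28 for Egr1 (0.958 to 0.965), Galnt6, Myo3b and Cflar for Egr2 (0.926 to 0.940), and Piezo1, Sik1 and Cpn2 for Egr3 (0.950 to 0.959).

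Sequence matches were counted on both strands of the whole regions and compared with the 45716 regions of 500 to 700 bp. TGANTCA (AP-1) occurred in 15 of the 50 regions and in 24.7% of those of like width; all 15 lay beyond 3 kb, where it stood in 42.9% of the 35 regions beside 30.7% of all regions at that distance. Of the 9 regions lower in BM, 6 held it: Egr2 at −76.5, −51.9 and −41.8 kb and Nr4a3 at −32.9, −10.8 and +27.8 kb. At Nr4a3 −32.9 kb the letters read TGAATCA. The 9 were picked by their BM values, and the share among all regions lower in BM is not given here. Whether the letters go with low BM values at these genes in particular was not tested. The CArG box occurred in 7 regions (2.29% of those of like width), with 5 copies in the Egr1 promoter region and 1 each in those of Egr2 and Egr3. GCGNGGGCG, the letters bound by Egr proteins themselves, occurred in 10 (5.21%), among them the Nr4a1 promoter region and the region 2.1 kb upstream of Nr4a3; 18.0% of all promoter-class regions hold it. TGACGTCA (CREB) occurred in 1, at the inner Nr4a2 TSS (1.84%), and AAAGGTCA, to which Nr4a receptors bind as monomers, in none (3.22%). The letters of GATA factors, AGATAA, occurred in 12 (26.6%), 2 copies standing in Nr4a2 −14.7 kb, and CCGGAAG (ETS) in 6 (9.48%). These matches are letters in a window, and binding was not measured.

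Other genes of the same pathways gave similar shares of regions that differed among the tissues. Of 145 regions at 19 other immediate-early genes (Fos, Jun, Dusp1, Klf6, Csrnp1 and others), 71 differed (49.0%). In BM 34 were higher and 25 lower (23.4% and 17.2%, beside 14.9% and 17.0% of all regions). In LI 16 were higher and 1 lower (11.0% and 0.69%, beside 8.8% and 1.27%). In lung 5 were higher and 10 lower (3.45% and 6.9%, beside 6.53% and 7.03%). In pancreas 7 went each way (4.83%, beside 8.27% higher and 2.11% lower). In SI 12 were higher and 18 lower (8.28% and 12.4%, beside 11.8% and 10.2%). Csrnp1 8.5 kb upstream had the order of Nr4a2 −14.7 kb at its ends, with a mean of 9.24 CPM in BM and 0.965 in SI (adjusted p = 2.63e-05 over the 5 tissues). Of 97 regions at upstream factors (Srf, the ETS partners Elk1, Elk3 and Elk4, the Mrtf cofactors, Mef2, Creb1 and Nfat genes), 49 differed (50.5%). In BM 11 were higher and 21 lower (11.3% and 21.6%), and in lung 15 and 6 (15.5% and 6.19%). In SI 17 were higher and 6 lower (17.5% and 6.19%), in LI 6 and 1 (6.19% and 1.03%), and in pancreas 6 and 2 (6.19% and 2.06%). In intestine 19 were higher and 8 lower (19.6% and 8.25%, beside 14.9% and 8.51% of all regions). Against the more frequent direction, an Nfatc2 region 5.5 kb upstream of a TSS was low in both LI (9.54 CPM) and SI (4.39) against 30.9 to 35.2 in the other 3 tissues (adjusted p = 1.04e-05). Of 24 regions at partners and corepressors (Nab1, Nab2, Egr4 and the Rxr genes), 12 differed (50.0%). In intestine 3 were higher and 6 lower (12.5% and 25.0%), and in SI 2 and 3 (8.33% and 12.5%). In lung 0 were higher and 1 lower, in pancreas 1 and 0, and in LI 0 either way. In BM 8 were higher and 4 lower (33.3% and 16.7%), with a median of 0.50. Among the 4 lower, the promoter region of Nab2, the Egr corepressor gene, was lower in BM by −1.07 (15.6 CPM against 29.8 to 36.1; adjusted p = 0.00226).

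Of 119 regions at 10 genes tied to Nr4a or Egr in lymphocytes, which encode among others the factor TOX, the checkpoint receptors PD-1 (Pdcd1) and TIM-3 (Havcr2), Fas ligand and the SOCS inhibitors, 59 differed (49.6%). In BM 42 were lower and 7 higher (35.3% and 5.88%, beside 17.0% and 14.9% of all regions), with a median of −0.46, and in LI 31 were higher and none lower (26.1%, beside 8.8% and 1.27%), with a median of 0.34. In lung 13 were higher and 4 lower (10.9% and 3.36%, beside 6.53% and 7.03%). In pancreas 9 were higher and 3 lower (7.56% and 2.52%, beside 8.27% and 2.11%). In SI 14 were higher and 16 lower (11.8% and 13.4%, beside 11.8% and 10.2%). At Fasl, 134.6 kb downstream, BM gave a mean of 0.793 CPM against 4.79 to 11.9 (adjusted p = 3.02e-05 over the 5 tissues). The medians of the 50 Nr4a and Egr regions were 0.03 in BM and −0.04 in LI.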

How the data were processed

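Per the labels and the methods of the study, the authors aligned reads to mm10 with Bowtie2 2.2.9, called peaks with MACS2 2.1.1, kept those found in both replicates, merged them over tissues and deposited counts of reads per merged region with bedtools. Duplicate removal and the handling of mitochondrial reads are not given in the sources used here, and a region with trapped repeats can take a large part of a library. The deposited values are whole-number counts, 10282987 to 32797872 per library. Each group has 2 libraries of pooled mice, so p-values measure the spread between these pools, which may be technical.

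Regions were placed on curated RefSeq transcripts (GRCm38.p6) by their centres: promoter (1000 bp before to 100 bp after a TSS), intragenic or intergenic. Counts were scaled by TMM and tested with edgeR 4.0.16 (quasi-likelihood, tissue alone in the design, all 10 libraries) over the 49981 regions with at least 1 count, with Benjamini-Hochberg adjustment. Alternatives were library size, DESeq2 1.42.0, a minimum mean of 10 counts, trends with GC content, width and mean count (loess, span 0.3), a replicate block, stricter thresholds and each library left out. In data simulated for 5 tissues with 2 libraries each over 49981 regions, 44 of 100 regions changed 2-fold and 100 of 100 changed 4-fold were called. No other simulated region changed, and all were given the same dispersion. In the real data 44.2% of regions differed, so these recoveries do not give the power there. Regions were named by rule: for each gene the promoter region with the most counts, the region outside promoters with the highest CPM per kb and that with the smallest p over the 5 tissues, then up to 3 TS OCRs or commonly decreased peaks per tissue with the largest smallest difference. Other regions given with values were chosen after their values were seen. The genes, lists and tests were chosen with earlier results of these data known.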

Additional observations from a re-analysis of the deposited data

How the results depend on the processing

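Scaling by library size alone shifted all regions by −0.082 (BM), −0.137 (LI), 0.183 (lung), −0.133 (pancreas) and 0.169 (SI) on the log2 scale, and DESeq2 size factors by no more than 0.019. No named region turned direction under any setting. The 23 regions that differed among the tissues were 22 with a replicate block, 22 of them shared, and replicate numbers did not pair the libraries (correlations of the deviations −0.218 to 0.196 over 10 pairs of tissues); with a block and GC and width trends removed, 5 regions were higher in BM, 2 lower in LI, 1 lower in lung and 1 lower in pancreas, the same counts as with those trends removed alone. The block otherwise moved no count by over 1.5 times. Under library size alone, 3 were higher in BM, 15 higher and 1 lower in lung, 7 lower in SI, and 4 were TS OCRs. With the mean count trend removed, 3 were higher in BM, 1 lower in lung, 1 lower in pancreas, and 5 were TS OCRs. DESeq2 called 2 lower in LI, its size factors gave 1 lower in pancreas, and DESeq2 on the 4 libraries of each pair gave 7 commonly decreased peaks. With a log2 difference of at least 1 required, 15 differed among the tissues, 2 were higher in BM, 0 lower in LI, 1 higher and 1 lower in lung, 0 lower in pancreas, 6 lower in SI and 3 lower in intestine. Adjusted p-values in all 4 contrasts left 1 TS OCR and 7 commonly decreased peaks. In these cases the cause was not tested.

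Leaving out each library in turn gave 17 to 30 regions that differed among the tissues; 2 to 10 higher and 5 to 12 lower in BM; 1 to 4 higher and 0 to 3 lower in LI; 0 to 11 higher and 0 to 2 lower in lung; 2 to 6 higher and 0 to 2 lower in pancreas; 3 to 6 higher and 8 to 12 lower in SI; 5 to 7 higher and 7 to 14 lower in intestine; and 1 to 3 TS OCRs and 8 to 13 commonly decreased peaks. The single TS OCR was left without the second lung or the second pancreas library. Of 73 calls of a difference, 24 held with each library left out and under 8 other settings. Those settings changed scaling, test, minimum count, trend or block, and did not include the required log2 difference of at least 1. Starts of protein-coding genes alone gave the same 50 regions and a limit of 100000 bp gave 49. With predicted RefSeq models, an alternative chosen after seeing the data, 34 regions were assigned and 14 differed. The minimum mean of 10 counts removed no region. With 2 libraries a tissue, 2-fold differences were often missed in simulation. Few regions changed there and all had the same dispersion, so that share does not carry over to these data. A region not called is not shown to be equal.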
